A study of Mus musculus with 6 samples.

Results

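The 7 genes described here, Gabra2, Gabra3, Gabra4, Gabra5, Gabrb1, Gabrb2 and Gabrg1, encode alpha, beta and gamma subunits of the GABA-A receptor. They were chosen by name, and every probe set annotated to exactly 1 of them was taken, which gave 21 of the 45037 probe sets measured and 7 of the 18193 genes they name. RNA came from the brain without its cerebellum in 3 Gb5ko samples, labelled Gb5-deficient, and 3 Gb5wt samples, labelled wild type, with 1 Affymetrix array each, and whether a sample was 1 mouse is not stated. Gb5, the product of Gnb5, is a G protein beta subunit of neurons that pairs with RGS proteins of the R7 family. The labels describe littermates matched for age and sex, and the sources used here give neither the age, sex or strain of each animal nor the way the Gb5-deficient allele was made. All values are RMA log2 expression values, and differences are Gb5ko minus Gb5wt on that scale, with the standard error (SE) of the limma fit.

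GABA-A receptors are pentameric chloride channels that open when GABA, the main inhibitory transmitter of the brain, binds between an alpha and a beta subunit. Receptors with the alpha subunits of Gabra2 and Gabra3 and a gamma subunit sit mostly at synapses and respond to classical benzodiazepines. Those with the subunit of Gabra4, frequent in thalamus, striatum and dentate gyrus, and of Gabra5, frequent in hippocampus, are found largely outside synapses and carry tonic inhibition. Gabrg1, Gabra2, Gabra4 and Gabrb1 lie next to one another in a cluster on mouse chromosome 5, Gabrb2 lies on chromosome 11, Gabra5 on chromosome 7 and Gabra3 on the X chromosome.

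Gnb5 went with the genotype labels, and read 3.67, 3.00 and 3.56 in Gb5ko and 8.79, 8.98 and 9.30 in Gb5wt. The 10 neuronal markers averaged between 11.91 and 11.96 in Gb5ko and between 11.90 and 11.94 in Gb5wt. The 9 measured cerebellar granule and Purkinje cell markers had array means of 8.05 to 8.28 in Gb5ko and 8.07 to 8.16 in Gb5wt. Gabra6 and Cbln3, both genes of granule cells, stayed under 5 on every array, while the other markers of that list read higher, among them Cbln1 at 10.78 to 11.30 in Gb5ko and 10.64 to 10.75 in Gb5wt, Zic1 at 10.04 to 10.32 in Gb5ko and 10.39 to 10.67 in Gb5wt, and Pcp2 at 8.66 to 8.73 in Gb5ko and 8.51 to 8.65 in Gb5wt. Calb1 and Neurod1, also on the list, are known to be made outside the cerebellum too. Which brain regions gave the higher readings on this list, those of Cbln1 and Zic1 included, was not tested. Some arrays stood apart. The first principal component held 40.3% of the variance. On it the Gb5ko arrays lay at -49.8, -5.82 and -8.47, and the Gb5wt arrays at 32.3, 15.4 and 16.4. Gb5ko 1 lay farthest out and received the lowest array weight, 0.470. Gb5wt 4, farthest out on the other side, received the next lowest, 0.676. The Y-linked Eif2s3y read 2.96, 11.28 and 6.97 in Gb5ko and 11.26, 6.05 and 4.05 in Gb5wt. Kdm5d, also Y-linked, read 2.86, 6.79 and 3.08 in Gb5ko and 7.21, 2.97 and 2.59 in Gb5wt. The X-inactivation transcript Xist read 10.65, 8.31 and 10.62 in Gb5ko and 4.96, 10.81 and 10.70 in Gb5wt. Gb5ko 3 had 10.62 for Gh, the pituitary growth hormone gene, against at most 6.21 on any other array. Several differences below moved when 1 array was left out, and values without it are given beside them.

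No subunit probe set passed the threshold, and the differences leaned toward lower values in Gb5ko. In limma, 0 of the 21 probe sets had an adjusted p under 0.05, beside 0.0266% of all 45037 probe sets (0.0222% lower and 0.00444% higher in Gb5ko). At an unadjusted p under 0.05 there were 4 lower and 1 higher in Gb5ko, beside 6.33% and 8.09% of all probe sets. The difference was negative at 17 of the 21, beside 44.5% of all probe sets, with a median of -0.12 beside 0.03 over all. Among the 11 bright ones, with a mean level over 9, it was negative at 9, beside 46.6% of all probe sets that bright. Of these bright ones 4 were lower in Gb5ko without overlap of the groups, beside 15.1%, and 0 higher, beside 17.8%. By the brightest probe set of each gene, 6 of 7 genes had a negative difference, beside 40.1% of all 18193 genes. Without Gb5ko 1 the counts were 15 of 21 probe sets and 4 of 7 genes, for which no share over all probe sets or genes was taken. Groups did not overlap at 5 probe sets that were lower in Gb5ko, beside 8.95% of all probe sets, and at 1 that was higher, beside 12.5%. Probe sets of 1 gene share their transcript and are not replicates. The 95% interval of the difference stayed within 1.5-fold either way at 15 of the 21 probe sets and within 2-fold at all 21. In RNA of a whole tissue, fewer cells of a type and less RNA per cell cannot be told apart.

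**Figure D1:**
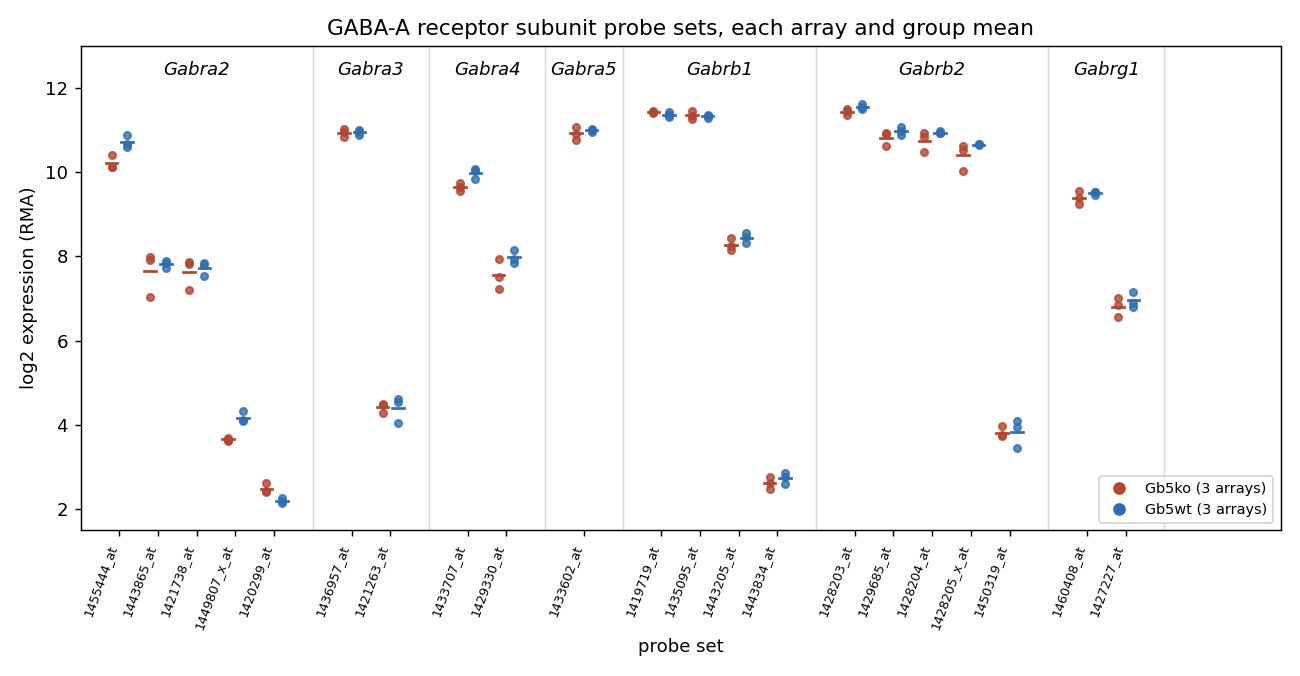
Log2 expression (vertical axis) of the 21 probe sets of the 7 subunit genes, with Gb5ko arrays in red left of Gb5wt arrays in blue, a point per array and a bar at each group mean. Every gene has at least 1 probe set with a mean over 9, and 5 probe sets read under 5.

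The brightest probe set of every subunit read in the upper part of the array. Its Gb5ko mean lay between percentile 84.3 of all probe sets, for Gabrg1, and 96.1, for Gabrb2 and Gabrb1, and its Gb5wt mean between 85.4 for Gabrg1 and 96.5 for Gabrb2. Gabra3 and Gabra5 stood at percentiles 94.1 and 94.1 in Gb5ko and 94.2 and 94.4 in Gb5wt, Gabra2 at 90.1 in Gb5ko and 93.0 in Gb5wt, and Gabra4 at 86.2 in Gb5ko and 88.6 in Gb5wt. Probe sets differ in affinity, and those of Gabrb1 ran from 2.62 to 11.43 in Gb5ko and from 2.75 to 11.37 in Gb5wt, so these levels do not rank the subunits by amount of transcript. The order of the brightest readings was the same in both groups at its ends, with Gabrb2 and Gabrb1 at the top and Gabra4 and Gabrg1 at the bottom. Gabrb2 and Gabrb1 were within their spread of one another in Gb5ko (11.43 ± 0.0677 and 11.43 ± 0.0152, SD, n = 3), as were Gabra3 and Gabra5 in Gb5ko and in Gb5wt.

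Gabra2, the alpha subunit gene of many synaptic receptors of forebrain, had the largest difference among the bright probe sets, and its 5 probe sets did not read alike. The brightest, 1455444_at, read 10.12, 10.40 and 10.13 in Gb5ko and 10.88, 10.60 and 10.66 in Gb5wt. All 3 Gb5ko arrays were below all 3 Gb5wt arrays. The difference was -0.50 ± 0.123 (SE, 95% interval -0.77 to -0.22), 1.41-fold lower in Gb5ko, with an unadjusted p of 0.00295, a limma adjusted p of 0.203 and an exact permutation p of 0.1, the smallest that 3 against 3 arrays can give. It stayed between -0.59 and -0.41 with any 1 array left out.

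A pair of Gabra2 probe sets of middle brightness gave another picture. Probe set 1443865_at read 7.91, 7.98 and 7.04 in Gb5ko and 7.84, 7.72 and 7.88 in Gb5wt. Probe set 1421738_at read 7.82, 7.87 and 7.20 in Gb5ko and 7.81, 7.54 and 7.84 in Gb5wt. In both, Gb5ko 3 was the lowest array and the other Gb5ko arrays were level with or above Gb5wt. Their differences were -0.17 ± 0.223 and -0.10 ± 0.181, and without Gb5ko 3 they were 0.13 and 0.11, while 1455444_at stayed at -0.45. Without Gb5ko 1 they were -0.30 and -0.19, and without Gb5ko 2 they were -0.34 and -0.22. Gb5ko 3 is the array with high Gh, and the 8 measured pituitary markers averaged 6.59 on it, against 4.76 and 4.28 on the other Gb5ko arrays and 4.29 to 4.89 in Gb5wt. Whether that bears on Gabra2 was not tested.

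The 2 dim Gabra2 probe sets differed in opposite directions, although the platform annotation gives both the same source sequence. Probe set 1449807_x_at read 3.62, 3.70 and 3.65 in Gb5ko and 4.32, 4.09 and 4.12 in Gb5wt, a difference of -0.52 ± 0.105 (limma adjusted p = 0.187). Probe set 1420299_at read 2.62, 2.44 and 2.40 in Gb5ko and 2.14, 2.26 and 2.21 in Gb5wt, a difference of 0.29 ± 0.105 (limma adjusted p = 0.281). Groups did not overlap in either, and with 1 array left out the differences ran from -0.56 to -0.45 and from 0.22 to 0.33. An x in the name of a probe set marks probes that can match other sequences, and 1420299_at lay at percentile 1.87 of all probe sets in Gb5ko and 0.0944 in Gb5wt.

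**Figure D2:**
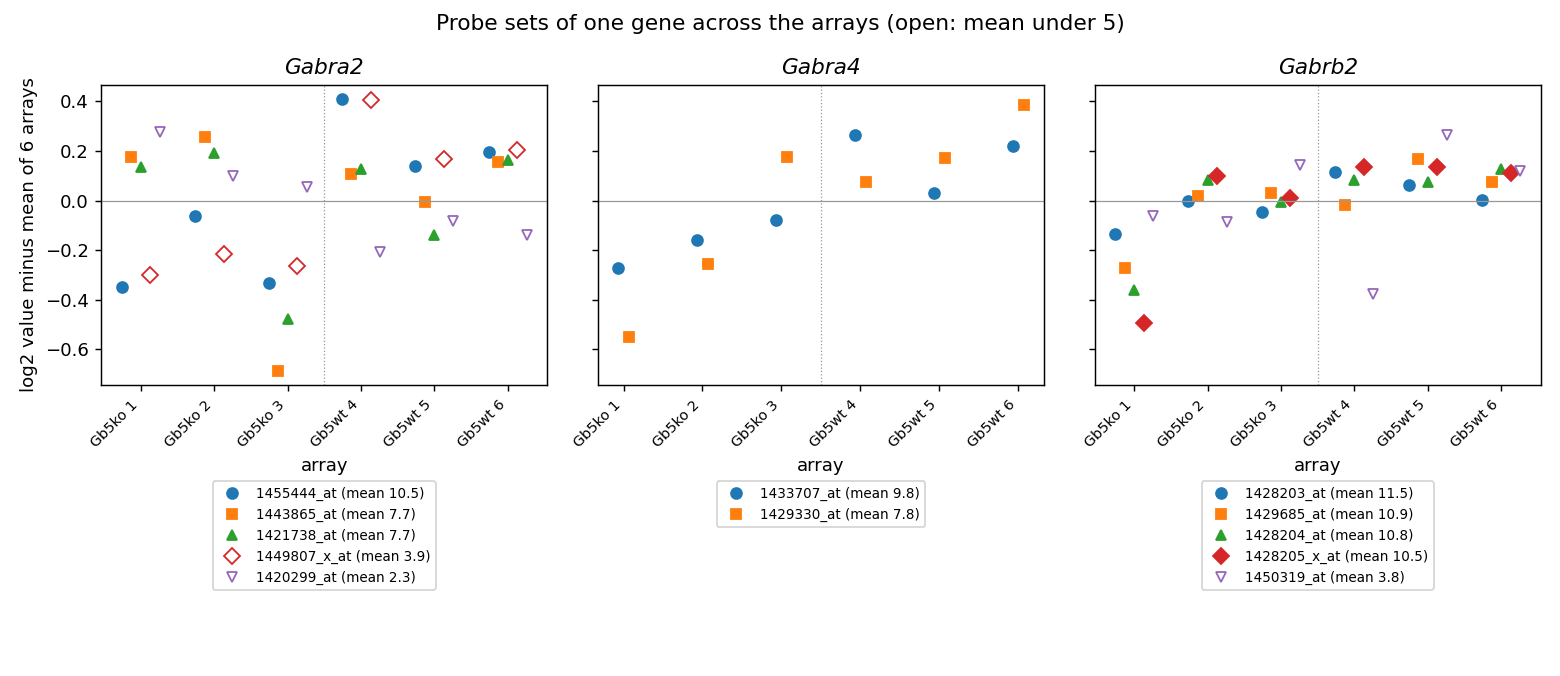
Deviation of each array from the probe set's own mean over 6 arrays (log2, vertical axis) for all probe sets of Gabra2, Gabra4 and Gabrb2, with Gb5ko arrays left of the dotted line and Gb5wt arrays right of it, and open symbols for probe sets with a mean under 5. Of the 5 Gabra2 probe sets, 2 are low on all Gb5ko arrays, 2 are lowest on Gb5ko 3, and the dimmest is high on all Gb5ko arrays, while 4 Gabrb2 probe sets are lowest on Gb5ko 1.

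Agreement between probe sets was tested by subtracting, on each array, the brightest probe set of a gene from each of its others, and fitting these differences for all 16752 such pairs of 9010 genes. Of the 14 pairs of the subunit genes, 0 passed in limma (adjusted p under 0.05), beside 0.0597% of all pairs. Of the 14, 2 had an unadjusted p under 0.05, beside 14.9%, and in 1 the groups did not overlap, beside 22%. Both with a low p were pairs of Gabra2. The pair without overlap set 1455444_at against 1420299_at, which read at the bottom of the array, so no size of disagreement is taken from it. Relative to 1455444_at, 1421738_at was 0.40 ± 0.176 higher in Gb5ko (unadjusted p = 0.05, limma adjusted p = 0.335). That value was 0.57 without Gb5ko 3 (limma adjusted p = 0.23) and 0.25 without Gb5ko 1 (limma adjusted p = 0.62). The pair of 1443865_at differed by 0.32 ± 0.216 (limma adjusted p = 0.502), by 0.58 without Gb5ko 3 (limma adjusted p = 0.23) and by 0.14 without Gb5ko 1 (limma adjusted p = 0.839). The dim 1449807_x_at followed 1455444_at, with -0.02 ± 0.124.

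Gabra4, the alpha subunit gene of many receptors outside synapses, was the other gene whose brightest probe set had an unadjusted p under 0.05. Probe set 1433707_at read 9.55, 9.66 and 9.74 in Gb5ko and 10.08, 9.84 and 10.03 in Gb5wt. The groups did not overlap, and the difference was -0.34 ± 0.11 (95% interval -0.59 to -0.09), 1.27-fold lower in Gb5ko, with an unadjusted p of 0.0126 and a limma adjusted p of 0.257. It ran from -0.41 to -0.29 with 1 array left out. The second probe set, 1429330_at, read 7.23, 7.52 and 7.95 in Gb5ko and 7.85, 7.95 and 8.16 in Gb5wt. Here Gb5ko 3 lay within the Gb5wt range, and the difference was -0.42 ± 0.177 (limma adjusted p = 0.329). It moved to -0.25 without Gb5ko 1 and to -0.61 without Gb5ko 3. The 2 Gabra4 probe sets differed from one another by -0.08 ± 0.172 (95% interval -0.47 to 0.31), a limma adjusted p of 0.864, with both lower in Gb5ko.

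Gabra2 and Gabra4 were the subunits with the largest differences at their brightest probe sets, and the 250 bases before their starts are shown for that reason. Both come from RefSeq on GRCm38.p6, minus strand of chromosome 5, at chr5:71095850-71096099 for Gabra2 and chr5:71658309-71658558 for Gabra4. The Gabra4 window also lies within the span of Gabrb1, chr5:71657921-72149572, which is on the plus strand. Capitals mark matches on either strand to the GC box GGGCGG (reverse complement CCGCCC) and to the CCAAT box CCAAT (reverse complement ATTGG).
Gabra2: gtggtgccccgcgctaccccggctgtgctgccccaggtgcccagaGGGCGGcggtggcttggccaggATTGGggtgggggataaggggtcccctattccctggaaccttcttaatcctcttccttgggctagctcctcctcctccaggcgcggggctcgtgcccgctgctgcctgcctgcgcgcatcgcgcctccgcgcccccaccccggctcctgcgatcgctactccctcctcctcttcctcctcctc
Gabra4: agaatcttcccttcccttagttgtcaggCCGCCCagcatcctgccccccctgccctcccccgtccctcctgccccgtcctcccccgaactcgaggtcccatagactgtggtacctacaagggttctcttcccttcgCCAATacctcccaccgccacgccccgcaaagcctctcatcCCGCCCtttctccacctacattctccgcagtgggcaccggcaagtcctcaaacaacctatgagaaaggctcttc
The Gabra2 window held 1 GC box match and 1 CCAAT match, and the Gabra4 window 2 and 1, with no match overlapping another. Of the 32851 windows of this length in the RefSeq table, 32.7% held the GC box letters and 33.8% the CCAAT letters. The letters TATAAA, found in 12.4% of windows, and TGACGTCA, in 1.55%, occurred in neither, nor did GCGTGGGCG, found in 0.536%. G and C made up 70% of the Gabra2 window and 61.2% of the Gabra4 window, beside a median of 52.4%. The windows held 18 and 12 CpG dinucleotides beside a median of 6. Windows of the other subunit genes ran from 35.6% G and C for Gabrg1 to 64.4% for a Gabrb1 window. CpG counts ran from 0 for Gabra3 to 18 for that Gabrb1 window. A Gabrb2 window also held a GC box match, and windows of Gabra3, Gabra5, Gabrb2 and Gabrg1 held CCAAT matches. A match describes letters and is not a binding site.

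Gabrb1, the beta subunit gene that neighbours Gabra4, had bright probe sets with differences near 0. Its brightest probe set, 1419719_at, read 11.41, 11.42 and 11.44 in Gb5ko and 11.36, 11.32 and 11.43 in Gb5wt. The groups overlapped, and the difference was 0.06 ± 0.094 (95% interval -0.16 to 0.27, limma adjusted p = 0.813). The second, 1435095_at, differed by 0.02 ± 0.099 (95% interval -0.20 to 0.25), with 11.27, 11.34 and 11.44 in Gb5ko and 11.36, 11.28 and 11.34 in Gb5wt. The remaining probe sets, at means of 8.28 and 2.62 in Gb5ko and 8.45 and 2.75 in Gb5wt, differed by -0.17 ± 0.118 and -0.12 ± 0.119. With 1 array left out, the bright ones ran from 0.03 to 0.09 and from -0.02 to 0.07, and the remaining ones from -0.25 to -0.10 and from -0.20 to -0.05.

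Gabrg1, a gamma subunit gene at the other end of the cluster, had differences that moved with several arrays. Probe set 1460408_at read 9.56, 9.39 and 9.25 in Gb5ko and 9.54, 9.54 and 9.46 in Gb5wt, a difference of -0.12 ± 0.11 (limma adjusted p = 0.652). Probe set 1427227_at, from the same source sequence, read 6.85, 7.02 and 6.55 in Gb5ko and 7.16, 6.81 and 6.90 in Gb5wt, a difference of -0.15 ± 0.148 (limma adjusted p = 0.677). Gb5ko 3 was the lowest array in both, and without it the differences were -0.04 and -0.02. The first was -0.20 without Gb5ko 1, and the second -0.25 without Gb5ko 2 and -0.04 without Gb5wt 4. Whether the high pituitary markers on Gb5ko 3 bear on this was not tested.

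Gabrb2, a beta subunit gene of the most common receptors of the adult brain, had 4 bright probe sets that read alike, 3 of them from 1 source sequence. The brightest, 1428203_at, read 11.36, 11.49 and 11.45 in Gb5ko and 11.61, 11.56 and 11.50 in Gb5wt. The groups did not overlap, and the difference was -0.12 ± 0.0975 (95% interval -0.34 to 0.10, limma adjusted p = 0.587). Probe set 1428205_x_at read 10.04, 10.63 and 10.54 in Gb5ko and 10.67, 10.66 and 10.64 in Gb5wt, a difference of -0.26 ± 0.153 (limma adjusted p = 0.465). The remaining bright ones, 1429685_at and 1428204_at, differed by -0.15 ± 0.118 and -0.19 ± 0.128. All 4 were lowest on Gb5ko 1, and without that array their differences lay between -0.08 and -0.05. Leaving out Gb5ko 2 put them between -0.37 and -0.15. A dim probe set, 1450319_at, read 3.82 ± 0.126 in Gb5ko and 3.82 ± 0.336 in Gb5wt (SD, n = 3 each), and its difference ran from -0.19 to 0.13 with 1 array left out.

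Gabra3 and Gabra5, alpha subunit genes outside the chromosome 5 cluster, had small differences. Gabra3 read 10.83, 11.02 and 10.95 in Gb5ko and 10.88, 11.01 and 10.97 in Gb5wt at 1436957_at, a difference of -0.02 ± 0.101 (95% interval -0.25 to 0.21, limma adjusted p = 0.95). The gene is X-linked and the arrays differed in sex-linked transcripts, and with the Eif2s3y level as a covariate the difference was again -0.02. It was -0.10 without the array of highest Eif2s3y in either genotype, an alternative chosen after seeing the data, and 0.03 without Gb5ko 1. Its dim second probe set, at 4.42 in Gb5ko and 4.40 in Gb5wt, differed by 0.02 ± 0.156, or by -0.15 to 0.13 with 1 array left out. Gabra5 had 1 probe set, which read 10.77, 11.08 and 10.91 in Gb5ko and 11.03, 11.00 and 10.95 in Gb5wt, a difference of -0.07 ± 0.11 (95% interval -0.32 to 0.18, limma adjusted p = 0.799). Gb5ko 1 was again the lowest array, and without it the difference was 0.00308, while without Gb5ko 2 it was -0.15.

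**Figure D3:**
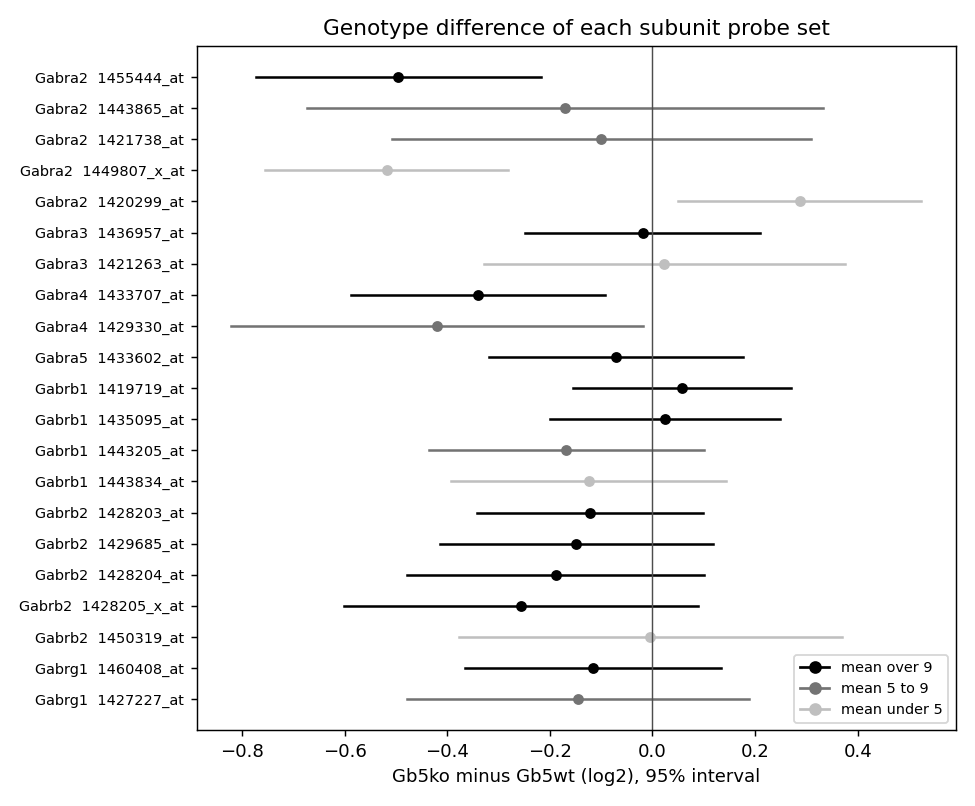
Difference Gb5ko minus Gb5wt (log2, horizontal axis) of the 21 subunit probe sets with its 95% interval from the limma fit, shaded by the mean level of the probe set. Intervals of 2 Gabra2 and both Gabra4 probe sets lie below 0, that of the dimmest Gabra2 probe set lies above 0, and the other 16 include 0.

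Spread among the Gb5ko arrays was wider than among the Gb5wt arrays at 16 of the 21 probe sets, beside 55.6% of all probe sets. The median SD of the subunit probe sets was 0.153 in Gb5ko and 0.092 in Gb5wt, beside 0.143 in Gb5ko and 0.126 in Gb5wt over all probe sets. Gb5ko 1 gave the lowest of the 6 values at 12 of the 21, beside 22.1% of all probe sets, and Gb5ko 3 at 4, beside 11.9%. The low readings of Gabrb2, Gabra4, Gabra5 and 1455444_at on Gb5ko 1 came together on the array that lay farthest from the rest. At 1455444_at, Gb5ko 3 read nearly as low, 10.13 against 10.12. Gb5wt 4 read highest there, 10.88, and without it the difference was -0.41, against -0.45 without Gb5ko 1. Gb5wt 4 gave the lowest value at 2 of the 21, beside 22.9% of all probe sets. The part of the deviation of Gb5ko 1 or Gb5wt 4 in these readings was not tested.

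Marker lists of cell types are given beside these subunits, each gene by its brightest probe set, where 40.1% of all genes had a negative difference. All 9 measured oligodendrocyte markers had a negative difference, with array means of 9.99 to 10.58 in Gb5ko and 10.41 to 10.79 in Gb5wt, and Gb5ko 1 was again the lowest. Of 10 astrocyte markers 6 were negative and 4 positive, with array means of 10.60 to 10.75 in Gb5ko and 10.75 to 10.89 in Gb5wt. They ran from the gap-junction gene Gjb6 at -0.59 ± 0.125 (limma adjusted p = 0.187) to Aldh1l1 at 0.35 ± 0.133 (limma adjusted p = 0.292). Of 10 neuronal markers 5 were negative and 5 positive. The lowest was Snap25, a SNARE protein of synaptic vesicle release, at -0.33 ± 0.105 (limma adjusted p = 0.255). The highest was Tubb3 at 0.27 ± 0.124 (limma adjusted p = 0.359). Of 10 microglial markers 8 were positive, with array means of 7.76 to 7.87 in Gb5ko and 7.62 to 7.69 in Gb5wt. Of 10 interneuron markers 8 were positive, with array means of 10.50 to 10.69 in Gb5ko and 10.50 to 10.58 in Gb5wt, and of 7 excitatory neuron markers 4. The endothelial and choroid plexus lists were each negative at 6 of 7. At an unadjusted p under 0.05, beside 5.68% of all genes lower and 9.89% higher, 3 oligodendrocyte, 3 astrocyte, 1 neuronal, 1 interneuron, 1 excitatory, 1 endothelial and 1 choroid plexus marker were lower in Gb5ko, and 4 microglial, 2 interneuron and 1 astrocyte marker were higher. In these lists 0 markers had a limma adjusted p under 0.05, and their part in the subunit differences was not tested.

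The genes whose 6 array values lay closest to those of a subunit were found by the root mean square (RMS) difference of mean-centred log2 values, over 6 arrays and 9824 other genes with a mean of at least 7. For Gabra2 they were Kbtbd8 (RMS 0.0292), Pdcl (0.0407), which encodes a phosducin-like cochaperone of G protein beta subunits, and Gabpa (0.0468), an ETS transcription factor. Kbtbd8 read 6.62, 6.97 and 6.68 in Gb5ko and 7.45, 7.20 and 7.22 in Gb5wt, a difference of -0.54, with Pdcl at -0.47 and Gabpa at -0.54. For Gabra4 they were Togaram1 (0.0261), the RNA demethylase gene Alkbh5 (0.0386) and Zfp287 (0.0392), with differences of -0.35, -0.30 and -0.33. For the remaining subunits, Gabrb2 was nearest to Nemf (0.0103), Nbea and Anxa4, Gabrb1 to Mphosph8 (0.0134), Rhno1 and Commd6, Gabra3 to Armc1 (0.0152), Clstn2 and Ppp1r15b, Gabra5 to Nfx1 (0.0193), Arl1 and Rab2a, and Gabrg1 to Pacc1 (0.0271), Dhx57 and Sema6d. No test was made of these likenesses.

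Other genes of GABA-A signalling gave no call either. Each was read by its brightest probe set, and in limma 0 of 47 measured genes in 4 lists had an adjusted p under 0.05, beside 0.022% of all 18193 genes. With no adjustment, 7 had a p under 0.05 on the higher side in Gb5ko and 4 on the lower, or 14.9% and 8.51%, beside 9.89% and 5.68% of all genes. Their median difference was 0.05, the same as over all genes.

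The GABA-A subunits besides the 7 had positive differences at 8 of 8 genes with a median of 0.18, and 6 of the 8 had a mean under 5. Gabrd, the delta subunit that joins the Gabra4 product outside synapses, was the one with a mean over 9, at 9.04, 9.01 and 9.39 in Gb5ko and 8.67, 8.94 and 9.24 in Gb5wt, a difference of 0.20 ± 0.163 (limma adjusted p = 0.595). The groups overlapped, and its second, dim probe set differed by 0.09. The smallest p values belonged to dim probe sets of Gabre (0.23 ± 0.102), Gabra6 (0.30 ± 0.158), Gabrr1 (0.17 ± 0.118) and Gabrr2 (0.20 ± 0.148), with limma adjusted p values from 0.347 to 0.551.

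Among 9 genes of GABA synthesis, transport and breakdown, the unadjusted p was under 0.05 for 1 on each side, beside 9.89% of all genes higher and 5.68% lower. Gad1, which encodes a GABA-synthesizing decarboxylase, read 11.10, 11.41 and 11.37 in Gb5ko and 11.55, 11.74 and 11.58 in Gb5wt, without overlap. Its difference was -0.33 ± 0.118 (limma adjusted p = 0.279), and a second probe set gave -0.16. Gad2, for the other decarboxylase, differed by 0.03 ± 0.105, and by -0.12 at a second probe set. Slc32a1, the vesicular GABA transporter, read 10.49, 10.20 and 10.39 in Gb5ko and 10.09, 9.99 and 10.16 in Gb5wt, a difference of 0.28 ± 0.112 (limma adjusted p = 0.315) that its 3 dimmer probe sets put between -0.15 and 0.23. The plasma membrane GABA transporters Slc6a11 and Slc6a12 differed by -0.31 ± 0.163 and 0.32 ± 0.174, with -0.05 at a second, dim probe set of Slc6a11.

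Of 7 chloride transport genes 2 were higher at an unadjusted p under 0.05, beside 9.89% of all genes. These were the cotransporter Slc12a7 (0.30 ± 0.123) and the channel Clcn2 (0.34 ± 0.144). The exchanger Clcn3 differed by -0.18 ± 0.119 and Slc12a2, the cotransporter NKCC1 that loads cells with chloride, by -0.17 ± 0.119, with -0.41 and -0.31 at the dimmer probe sets of Slc12a2. Slc12a5, the cotransporter KCC2 that extrudes chloride from neurons, differed by 0.05 ± 0.102. Of 23 scaffold and trafficking genes 4 stood on the higher and 3 on the lower side at that level, beside 9.89% and 5.68% of all genes. Plcl2, for a phospholipase C-like protein, had the smallest p, at 10.10, 9.87 and 10.04 in Gb5ko and 9.35, 9.53 and 9.73 in Gb5wt, a difference of 0.47 ± 0.125 (limma adjusted p = 0.222). Rdx, for radixin, which anchors receptors with the Gabra5 product, read 10.70, 11.28 and 11.03 in Gb5ko and 11.61, 11.53 and 11.44 in Gb5wt, a difference of -0.52 ± 0.149 (limma adjusted p = 0.233), with -0.30 and 0.03 at its other probe sets. Shisa7, for a receptor auxiliary subunit, differed by 0.33 ± 0.126 and Dmd, for dystrophin, by -0.32 ± 0.125, with -0.22 to -0.05 at its other probe sets. The remaining genes of that count were Nlgn2, for the adhesion protein neuroligin-2 of inhibitory synapses (0.27 ± 0.104), Mdga1, for a neuroligin-binding protein and read by a probe set with a mean under 5 (0.22 ± 0.0947), and Insyn2a (-0.24 ± 0.102). Gphn, for the scaffold protein gephyrin, differed by -0.14 ± 0.0979 at its brightest probe set. Its dimmer ones gave 0.01 ± 0.101 and -0.43 ± 0.115, the last without overlap of the groups (limma adjusted p = 0.222).

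**Figure D4:**
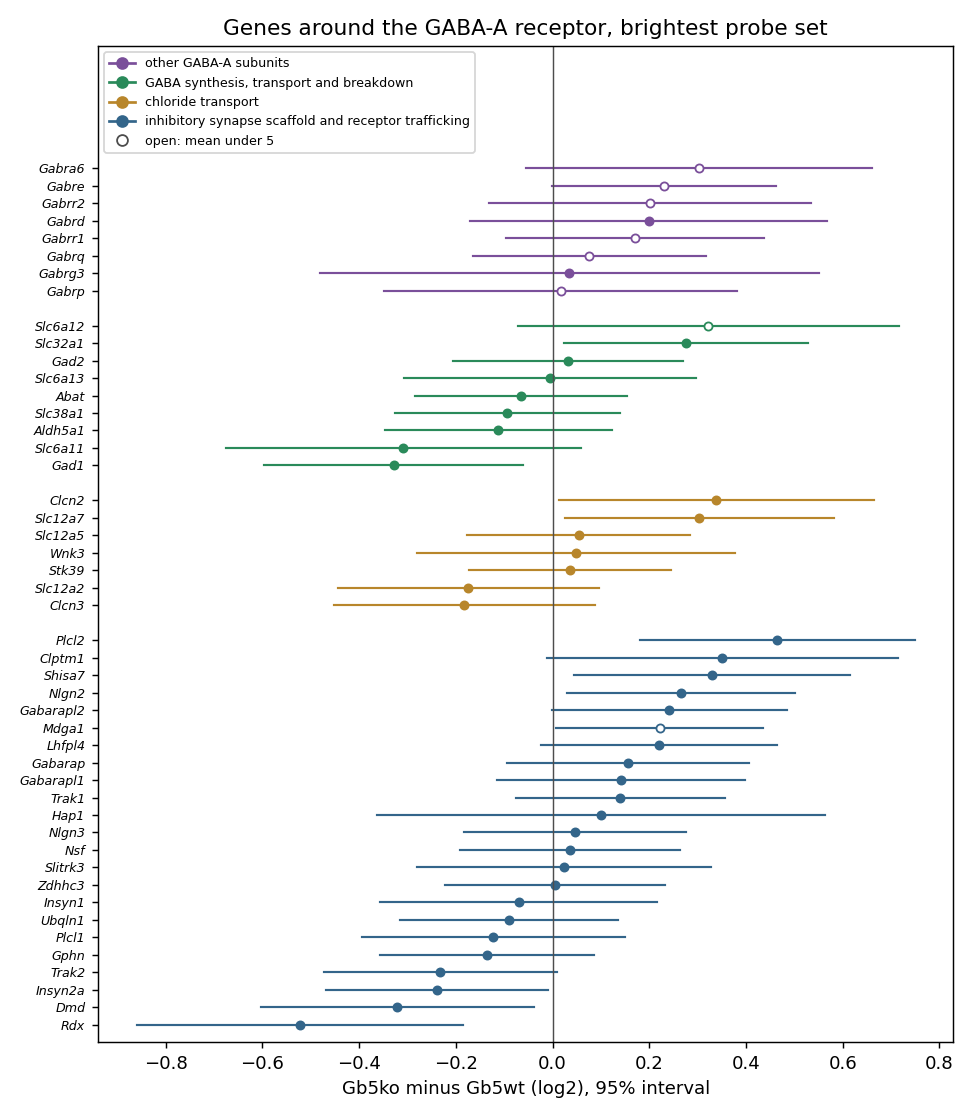
Difference Gb5ko minus Gb5wt (log2, horizontal axis) of 47 genes in 4 lists around the GABA-A receptor, each by its brightest probe set, with 95% intervals from the limma fit and open points for means under 5. All 8 subunits outside the 7 described lie right of 0, and the scaffold genes run from -0.52 for Rdx to 0.47 for Plcl2.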

How the data were processed

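The deposited values are log2 expression levels, 1 for each probe set on each array. RMA and Partek are the tools listed, without versions, per the submitters' processing notes. RMA brings arrays to a common distribution. Dim probe sets had positive values too, with 1.91 as the lowest on any array. Neither scanner output nor detection calls entered the analysis. The array's 64 controls were dropped, and values were used as deposited, with no further normalization. Array medians lay between 5.81 and 5.85. The number of arrays limits the precision, with a median standard error of 0.123 for a log2 difference.

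Gene names came from the platform annotation, in which 34945 probe sets had 1 gene, and chromosomes and upstream windows from RefSeq tables of GRCm38.p6. limma 3.58.1 (lmFit, then eBayes) in R 4.3.3 was run on all 45037 probe sets and separately on all within-gene pairs. Tests were two-sided, with Benjamini-Hochberg adjustment, a threshold of 0.05, 4 residual degrees of freedom and a prior of 5.05. The code was tested on simulated data. The series describes biological replicates. If they were not separate animals, p-values measure only the spread between these samples.

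The text names all probe sets of the 7 genes, the 4 genes with the smallest p in each list, any gene that a count of 5 or fewer needs (Nlgn2, Mdga1 and Insyn2a), the 3 closest genes by array values, and Gnb5. Gabrd, Gad2, Gphn, Slc12a5, Xist, Eif2s3y, Kdm5d, Gh, Gjb6, Aldh1l1, Snap25, Tubb3, Cbln1, Cbln3, Zic1, Pcp2, Calb1 and Neurod1 are named besides, chosen after their values were seen. The subunits, lists and tests were chosen with earlier results of these data known. Figures were drawn with matplotlib 3.10.9.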

Additional observations from a re-analysis of the deposited data

How the results depend on the processing

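No paired analysis was possible because no replicate number occurs in both genotypes. Of the subunit probe sets, 0 passed under either filter on dim values, each of the renormalizations (quantile, median, cyclic loess), eBayes with trend and robust settings, weighted arrays, a single probe set for each gene, an adjusted p under 0.1, the fold rule, Eif2s3y as a covariate and each array left out. The counts of 0 subunit pairs and 0 other GABA genes held in their alternatives too. The adjusted p of 1455444_at ran from 0.122 to 0.442 over these. Negative differences numbered 15 to 17 of 21 probe sets and 4 to 6 of 7 genes with 1 array left out, and 17 or 18 probe sets after renormalization. Leaving out, from each group, its array with most Eif2s3y, chosen after seeing the data, left 17 and 6 (adjusted p of 1455444_at 0.469), and those with most Gh, chosen likewise, 16 and 6. No share of negative differences over all probe sets or genes was taken for these alternatives. Over all probe sets, the 12 calls became 9 to 12 with 1 array left out, 23 with trend and robust settings, 27 with weighted arrays, 4 with a single probe set for each gene, 44 for the looser adjusted threshold of 0.1, and 479 for 1.5-fold with a raw p under 0.05. With the adjustment made over all 45037 probe sets, 4 of the 18193 brightest probe sets of a gene also passed. Looser thresholds give the 44 and 479 by construction, and for the 23 and 27 the cause was not tested. Among all pairs, the 10 calls became 4 for probe sets above the median level, where fewer were tested, and 6 to 9 with 1 array left out, the 6 without Gb5wt 5. Renormalizing put the median difference over all probe sets between 0.00369 and 0.0149, against 0.03 as deposited.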
